A study of Mus musculus with 73 samples.

Results

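Transcripts of 7 myelin genes, Mog, Mobp, Mbp, Mag, Cnp, Mal and Cldn11, were followed in microglia, the resident macrophages of the brain. They were taken by gene symbol from the 39179 genes listed in each of 3 deposited tables, and all 7 were found in every table. The series isolated cells from mouse brain by sorting on CD11b and CD45 and measured polyadenylated RNA by sequencing, giving 73 libraries in 10 groups. All mice were C57BL/6 by the labels. At 4 months of age there were 2 libraries of 5xFAD;CD33-/-;TREM2-/- mice, 4 of 5xFAD;CD33-/-, 4 of 5xFAD;TREM2-/-, 9 of 5xFAD and 7 of wild type (WT). At 8 months a table made for the CD33 comparison held 12 libraries of 5xFAD;CD33-/- and 11 of 5xFAD, and a separate table held 8 of 5xFAD;TREM2-/-, 10 of 5xFAD and 6 of WT. 5xFAD is an amyloid model that carries human transgenes with familial Alzheimer's disease mutations under a neuronal promoter, so every knockout group carries these transgenes too and WT does not. CD33 is an inhibitory sialic acid receptor of microglia and TREM2 an activating lipid receptor. The labels do not say how either knockout allele was made. The 7 genes were chosen with results of these data known, taken here to be chosen by their higher values in 5xFAD;CD33-/- than in 5xFAD at 4 months, so that contrast is described without a test.

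Myelin is the lipid-rich membrane that oligodendrocytes wrap around axons. Mbp encodes myelin basic protein, which holds the cytoplasmic faces of compact myelin together. The gene also gives rise to golli transcripts, which are found in immune cells as well. Mobp encodes another small basic protein of compact myelin, and Mal a raft-associated proteolipid that takes part in sorting membrane proteins and was first described in T lymphocytes. Mog encodes a glycoprotein on the outermost face of the sheath, and Mag a sialic acid-binding adhesion molecule on the face next to the axon. Cnp encodes a phosphodiesterase of non-compact myelin, and Cldn11 the claudin of the tight junctions between its layers. Microglia take up myelin debris, and in bulk RNA of a sorted population fewer cells of a type and less RNA per cell cannot be told apart.

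The libraries carried a strong microglial profile: over all groups the summed level of 14 microglia markers lay between 20154 and 41493 RPKM, a read count scaled to gene length and library depth. The 7 myelin genes summed to between 57.7 and 284.4 RPKM. Markers of other cells were present as well, with 10 endothelial markers summing to between 439.3 and 2852 RPKM, and 10 neuronal markers to between 2.11 and 11.1 RPKM. Recovered reads per library ran from 21188034 to 79654244. In 3 libraries at 4 months both Xist and the Y-linked gene Ddx3y passed 1 RPKM (5xFAD;CD33-/-;TREM2-/- replicate 1, 5xFAD;CD33-/- replicate 2 and 5xFAD;TREM2-/- replicate 9). Of the libraries labelled CD33-/-, 2 held Cd33 reads against their label: replicate 1 of 5xFAD;CD33-/-;TREM2-/- with 14.02 RPKM and replicate 7 of 5xFAD;CD33-/- at 8 months with 19.1 RPKM. Trem2 averaged 30.0 ± 4.53 RPKM in 5xFAD;CD33-/-;TREM2-/- (SD, n = 2) and 32.3 ± 3.02 RPKM in 5xFAD;TREM2-/- (n = 4), against 740.3 ± 90.4 RPKM in 5xFAD (n = 9) at 4 months. At 8 months it averaged 18.1 ± 2.86 RPKM in 5xFAD;TREM2-/- (n = 8), against 808.0 ± 104.3 RPKM in 5xFAD (n = 10). At 8 months 3 library titles carry 2 numbers (WT replicate 2 and 5xFAD;TREM2-/- replicates 1 and 4), and the labels do not say whether these hold 2 animals.

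On GRCm38 in the GENCODE M21 annotation 6 of the protein-coding genes lie as follows. Mog is at chr17:37010743-37023398 (minus strand), Mobp at chr9:120149707-120181484 (plus), Mag at chr7:30899176-30914873 (minus), Cnp at chr11:100574904-100591729 (plus), Mal at chr2:127633226-127656695 (minus), and Cldn11 at chr3:31149920-31164324 (plus). Start regions from RefSeq (GRCm38.p6), 250 bases before to 50 after the listed start, were searched for these 6 genes, Mbp being left out. They are shown for Mog, which held the first of the motifs below alone, Mobp, which held the other alone, Cnp, which held both, and Mal, which held neither. Capitals mark 2 searched motifs on either strand: CTGGCAC or CTGGTAC, words bound by MYRF, the transcription factor that drives myelin genes, and ACAAAG or ACAATG, words of the SOX family to which the oligodendrocyte factor SOX10 belongs.

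Mog: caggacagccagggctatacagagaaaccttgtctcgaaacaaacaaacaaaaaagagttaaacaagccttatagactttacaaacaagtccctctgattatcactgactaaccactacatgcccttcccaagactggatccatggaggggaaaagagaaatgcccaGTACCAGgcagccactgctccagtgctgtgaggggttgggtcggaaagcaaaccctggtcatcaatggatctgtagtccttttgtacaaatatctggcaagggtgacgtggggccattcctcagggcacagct

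Cnp: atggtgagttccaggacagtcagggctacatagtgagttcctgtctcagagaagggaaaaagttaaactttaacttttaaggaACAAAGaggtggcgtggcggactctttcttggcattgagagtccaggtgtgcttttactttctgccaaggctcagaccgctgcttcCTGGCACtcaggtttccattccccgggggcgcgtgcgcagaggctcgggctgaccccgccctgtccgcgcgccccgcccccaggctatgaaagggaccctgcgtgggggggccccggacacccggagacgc

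Mobp: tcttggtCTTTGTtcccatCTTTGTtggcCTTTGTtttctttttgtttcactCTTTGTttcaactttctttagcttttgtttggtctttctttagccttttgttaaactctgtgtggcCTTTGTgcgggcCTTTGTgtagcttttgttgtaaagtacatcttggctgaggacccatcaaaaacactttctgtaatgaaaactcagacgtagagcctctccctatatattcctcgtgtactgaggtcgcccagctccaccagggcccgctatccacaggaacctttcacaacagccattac

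Mal: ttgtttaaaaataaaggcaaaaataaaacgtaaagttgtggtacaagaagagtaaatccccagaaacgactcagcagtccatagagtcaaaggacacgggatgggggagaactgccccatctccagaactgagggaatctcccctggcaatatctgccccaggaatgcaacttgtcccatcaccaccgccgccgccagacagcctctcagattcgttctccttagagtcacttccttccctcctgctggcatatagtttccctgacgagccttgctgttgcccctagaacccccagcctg

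The Mog window is chr17:37023349-37023648 on the minus strand, Cnp chr11:100574689-100574988 on the plus strand, Mobp chr9:120149492-120149791 on the plus strand and Mal chr2:127656646-127656945 on the minus strand. A MYRF word was found in Mog, Mag and Cnp, 3 of the 6 windows, and in 7.1% of the 32851 start regions of 300 bases in the table. A SOX word was found in Mobp, Mag and Cnp, also 3 of 6, and in 28.6% of all start regions, and Mobp held 6 matches. The windows of Mal and Cldn11 held neither. RefSeq lists 3 starts for Mag, and its window is that of 1 of them. No match of the MYRF words overlapped one of the SOX words. These matches describe letters in the windows and not binding.

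Every one of the 7 transcripts was detected in all 73 libraries, and all 7 passed the filter of 1 RPKM in each table. They differed widely in how far they varied. Mog ran from 0.816 to 17.9 RPKM (21.97-fold, 41 to 1257 reads), Cldn11 from 1.31 to 26.3 RPKM (20.03-fold), Mal from 4.60 to 68.7 RPKM (14.9-fold) and Mobp from 0.852 to 12.7 RPKM (14.9-fold). Mag varied less, from 8.34 to 55.1 RPKM (6.60-fold). Mbp and Cnp, with the highest median RPKM of the 7, varied least, from 14.4 to 55.8 RPKM (3.89-fold) and from 18.6 to 65.4 RPKM (3.52-fold).

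In 5xFAD;CD33-/- at 4 months, the contrast the genes were selected on, the levels came from a pair of high libraries and a pair near the 5xFAD range. Mal had 20.8, 58.4, 59.96 and 12.9 RPKM in 5xFAD;CD33-/- replicates 1 to 4, against a lowest, median and highest of 6.97, 10.4 and 27.0 RPKM in 5xFAD. Mobp had 3.47, 6.58, 6.34 and 2.22 RPKM in 5xFAD;CD33-/-, against 1.07, 1.63 and 3.01 RPKM in 5xFAD. Replicates 2 and 3 were above every 5xFAD library for both genes, and replicate 4 lay within the 5xFAD range. Replicate 1 lay within that range for Mal but above it for Mobp and Mag. The same pair led in Cldn11, with 6.67, 11.9, 9.68 and 4.00 RPKM in 5xFAD;CD33-/- and 2.28, 3.63 and 7.35 RPKM in 5xFAD, and in Mog, with 3.45, 7.44, 5.90 and 3.11 RPKM in 5xFAD;CD33-/- and 1.78, 2.71 and 5.09 RPKM in 5xFAD. Mbp had 21.3, 32.1, 29.7 and 18.3 RPKM in 5xFAD;CD33-/- and ran from 14.4 to 22.9 RPKM in 5xFAD, a step of the same kind from a higher base.

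Mag and Cnp, the adhesion molecule and the enzyme, had the smallest changes in that contrast. Mag had 24.8, 27.4, 24.9 and 20.7 RPKM in 5xFAD;CD33-/-, against 17.1, 18.6 and 23.2 RPKM in 5xFAD, and Cnp had 32.4, 39.0, 36.7 and 29.0 RPKM in 5xFAD;CD33-/-, against 27.1, 29.1 and 36.8 RPKM in 5xFAD. For all 7 genes the groups overlapped. As log2 changes on the log2(RPKM + 0.5) scale, the order was Mal 1.44, Mobp 1.13, Cldn11 0.79, Mog 0.62, Mbp 0.50, Mag 0.34 and Cnp 0.18, with a median of 0.62 beside -0.04 over all genes tested. Leaving out a single library moved this median between 0.41, without replicate 2, and 0.79, without replicate 4. Endothelial markers were high in the same pair, summing to 907.3, 1703, 1715 and 846.4 RPKM in 5xFAD;CD33-/- replicates 1 to 4, against 500.0, 701.9 and 1861 RPKM (lowest, median, highest) in 5xFAD. The highest 5xFAD value belonged to replicate 1, which also had the highest Mal of that group. Replicate 2 of 5xFAD;CD33-/- is also 1 of the libraries with both Xist and Ddx3y reads. The part of these in the levels was not tested.

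**Figure D1:**
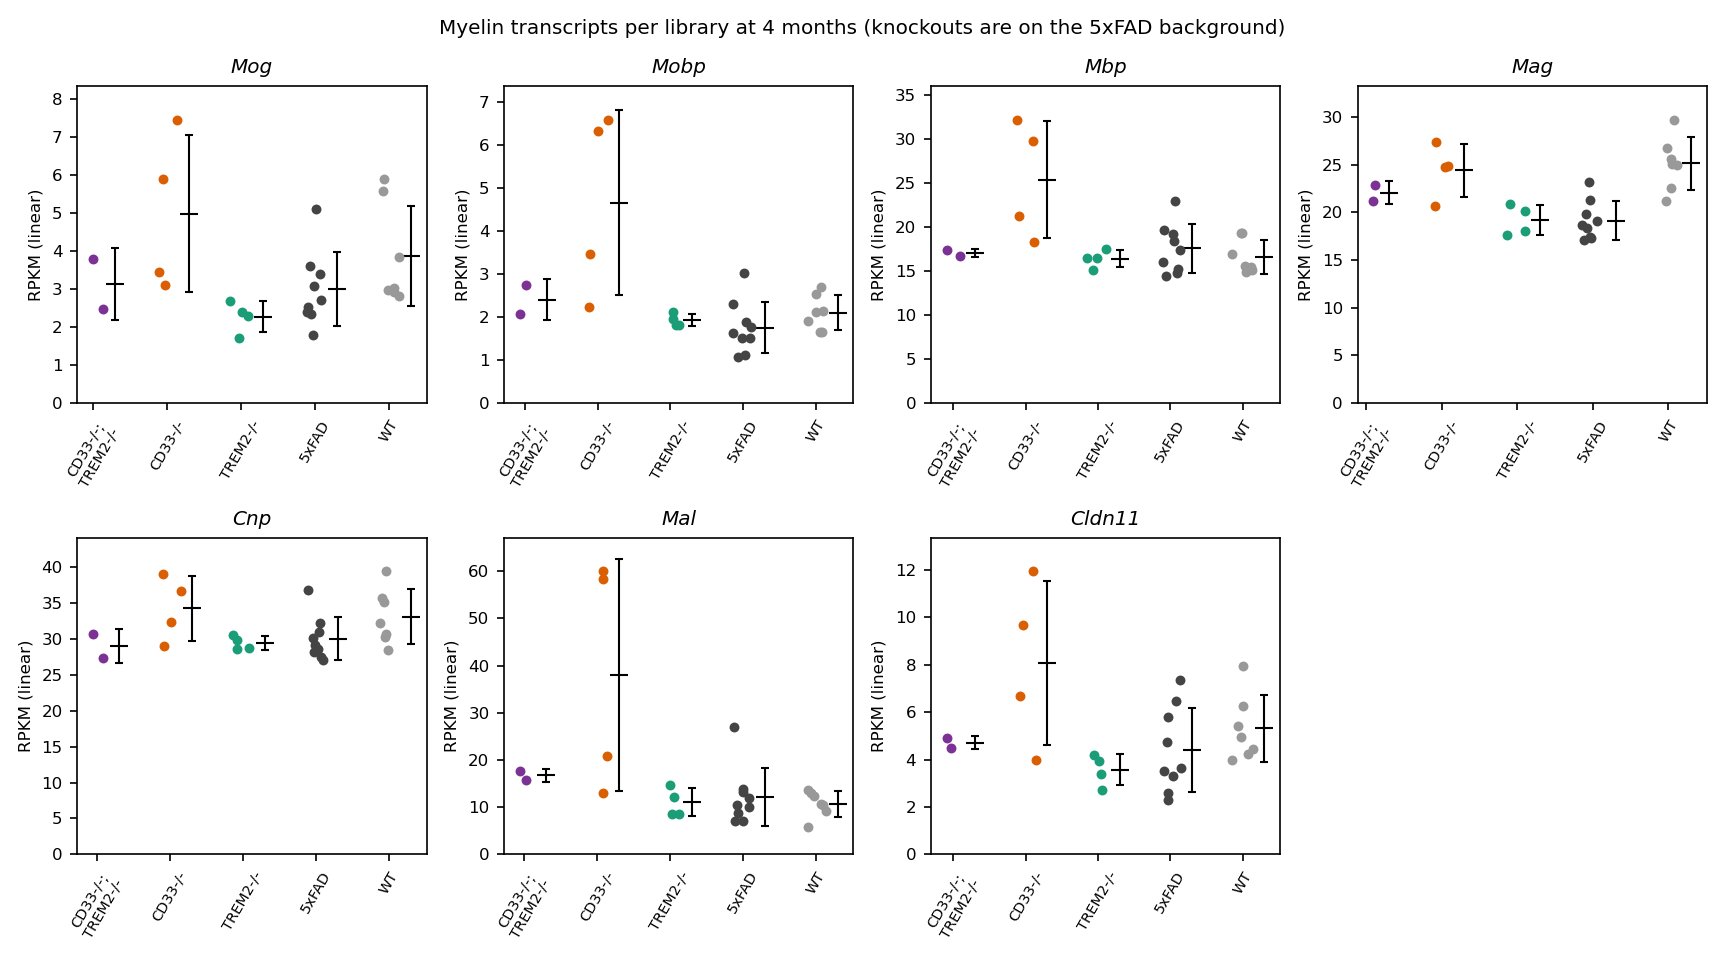
RPKM of each myelin gene in every library at 4 months (points), on linear axes from 0, with mean ± SD beside each group, where all groups but WT are on the 5xFAD background. The 2 highest 5xFAD;CD33-/- points are replicates 2 and 3, at 58.4 and 59.96 RPKM for Mal, and for Mag the 5xFAD libraries (17.1 to 23.2 RPKM) lie mostly below WT (21.2 to 29.7 RPKM).

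The amyloid model without a receptor knockout was set against WT at 4 months to see whether the transgenes alone change the myelin transcripts. The 9 5xFAD libraries are also those the genes were chosen against, so the members are described here without a test. Mag ran from 17.1 to 23.2 RPKM with a median of 18.6 in 5xFAD and from 21.2 to 29.7 RPKM with a median of 25.1 in WT. The ranges overlapped, and all 9 5xFAD libraries were below the WT mean (log2 change -0.38 ± 0.0711 SE). Mog averaged 2.99 ± 0.968 RPKM in 5xFAD and 3.86 ± 1.32 RPKM in WT (SD, n = 9 and 7), a log2 change of -0.32 ± 0.19. For Mbp the means were 17.5 ± 2.79 RPKM in 5xFAD and 16.6 ± 1.93 RPKM in WT, and the changes of the other 4 genes lay between -0.29 (Cldn11) and 0.10 (Mal). Of 26 other mature oligodendrocyte genes tested, none was called by limma. Of 14 microglia markers 7 were called lower in 5xFAD (median -0.17) and of 10 endothelial markers 3 were called higher (median 0.77), beside 7.79% of all genes called lower and 8.95% called higher.

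Loss of TREM2 at 4 months was compared with 5xFAD and with WT. In 5xFAD;TREM2-/- against 5xFAD, which uses the same 5xFAD libraries and is also given without a test of the members, their changes lay between -0.30 (Mog) and 0.14 (Mobp), and 2.39% of all genes were called. Mag averaged 19.2 ± 1.59 RPKM in 5xFAD;TREM2-/- (n = 4) and 19.1 ± 2.02 RPKM in 5xFAD (n = 9), a log2 change of 0.01 ± 0.0848. Against WT, where 0.399% of genes were called, Mag had 18.1, 17.6, 20.1 and 20.9 RPKM in 5xFAD;TREM2-/- and 21.2, 25.1 and 29.7 RPKM (lowest, median, highest) in WT. The groups did not overlap, and the log2 change of -0.38 ± 0.0884 missed the threshold (limma adjusted p = 0.0612). It was called without WT replicate 10 and with a pseudocount of 0.1, the single call in both. Mog did not overlap either, with 2.29, 1.71, 2.40 and 2.67 RPKM in 5xFAD;TREM2-/- and 2.82, 3.02 and 5.88 RPKM in WT (log2 change -0.62 ± 0.236, limma adjusted p = 0.555). The share of all genes whose groups did not overlap in this comparison was not counted.

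The double knockout had 2 libraries, of which replicate 1 held Cd33. Its Mal levels were 17.7 and 15.8 RPKM and its Mobp levels 2.74 and 2.07 RPKM, both within the 5xFAD range and below the high pair of 5xFAD;CD33-/-. For Mal the 5xFAD range reached these levels only through replicate 1, at 27.0 RPKM. The other 5xFAD libraries, from 6.97 to 13.8 RPKM, lay below both double knockout libraries. Of all genes 3.75% were called in 5xFAD;CD33-/-;TREM2-/- against 5xFAD, 4.91% against 5xFAD;CD33-/- and 0.0691% against 5xFAD;TREM2-/-. The first 2 of these use libraries that the genes were chosen on, so no test of the members is given there. Against 5xFAD;CD33-/- all 7 changes were negative, with a median of -0.54 beside 0.01 over all genes, and Mbp had 17.3 and 16.7 RPKM in the double knockout, below all 4 CD33 knockout libraries (-0.52 ± 0.178). Mag, Mal and Cldn11 lay above all 4 libraries of the TREM2 knockout without passing (changes of 0.20, 0.62 and 0.37, limma adjusted p of 0.899, 0.909 and 0.919). The share of all genes that separate like this, with 2 libraries against 4, was not counted, here or for Mbp above. Without replicate 1 the changes of Mag, Mal and Cldn11 were 0.25, 0.54 and 0.32, from 1 library whose spread is assumed to be that of the other groups.

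At 8 months the CD33 comparison rested on 12 and 11 libraries other than those of the 4-month contrast. Mal was higher in 5xFAD;CD33-/- and the other 6 genes did not pass. Mal ran from 6.56 to 42.0 RPKM with a median of 18.03 in 5xFAD;CD33-/- and from 4.60 to 19.004 RPKM with a median of 9.30 in 5xFAD. The ranges overlapped, and 11 of 12 knockout libraries were above the 5xFAD mean (log2 change 1.00 ± 0.249, limma adjusted p = 0.027). It was the 1 member of 7 called higher, where 2.95% of all genes were called higher.

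The other members showed a pair of high libraries over a group like 5xFAD. Mog ran from 0.887 to 7.81 RPKM with a median of 1.27 in 5xFAD;CD33-/- and from 0.816 to 3.54 RPKM with a median of 1.62 in 5xFAD (log2 change 0.18 ± 0.276, limma adjusted p = 0.772). Cldn11 ran from 1.77 to 15.97 RPKM with a median of 3.22 in 5xFAD;CD33-/- and from 1.31 to 7.99 RPKM with a median of 3.15 in 5xFAD (0.29 ± 0.317, limma adjusted p = 0.69). Replicates 5 and 7 of the CD33 knockout were the highest for all 7 genes, with Mog at 5.33 and 7.81 RPKM, and replicate 7 is the library that held Cd33 against its label. The titles of both libraries begin with the same prefix, as do those of 5xFAD replicates 6 and 7. Mobp averaged 2.49 ± 1.35 RPKM in 5xFAD;CD33-/- and 1.85 ± 0.49 RPKM in 5xFAD (0.26 ± 0.197, limma adjusted p = 0.564), and Mag 12.9 ± 5.16 RPKM in 5xFAD;CD33-/- and 11.8 ± 2.69 RPKM in 5xFAD. Mbp and Cnp had changes of 0.00 and 0.02.

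Endothelial markers moved with Mal here: 9 of 10 were called higher in 5xFAD;CD33-/-, with a summed level of 744.7 to 1841 RPKM (median 1099) in 5xFAD;CD33-/- and 529.0 to 1054 RPKM (median 753.9) in 5xFAD. Of 14 other mature oligodendrocyte genes tested 2 were higher, Pllp (0.78, limma adjusted p = 0.0281), a proteolipid related to Mal, and Apod (0.76, limma adjusted p = 0.0423), a lipocalin. The call for Mal was lost, at log2 changes between 0.90 and 0.98, without replicate 3, 5 or 7 of the CD33 knockout or replicate 4, 5, 6 or 7 of 5xFAD. With no filter on low genes the change was 1.00 and the limma adjusted p 0.0514. Without replicate 7, which held Cd33, the change was 0.90 (limma adjusted p = 0.0524). With a covariate of endothelial markers the Mal change was -0.07 (limma adjusted p = 0.999), and the covariate was itself higher in the knockout.

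**Figure D2:**
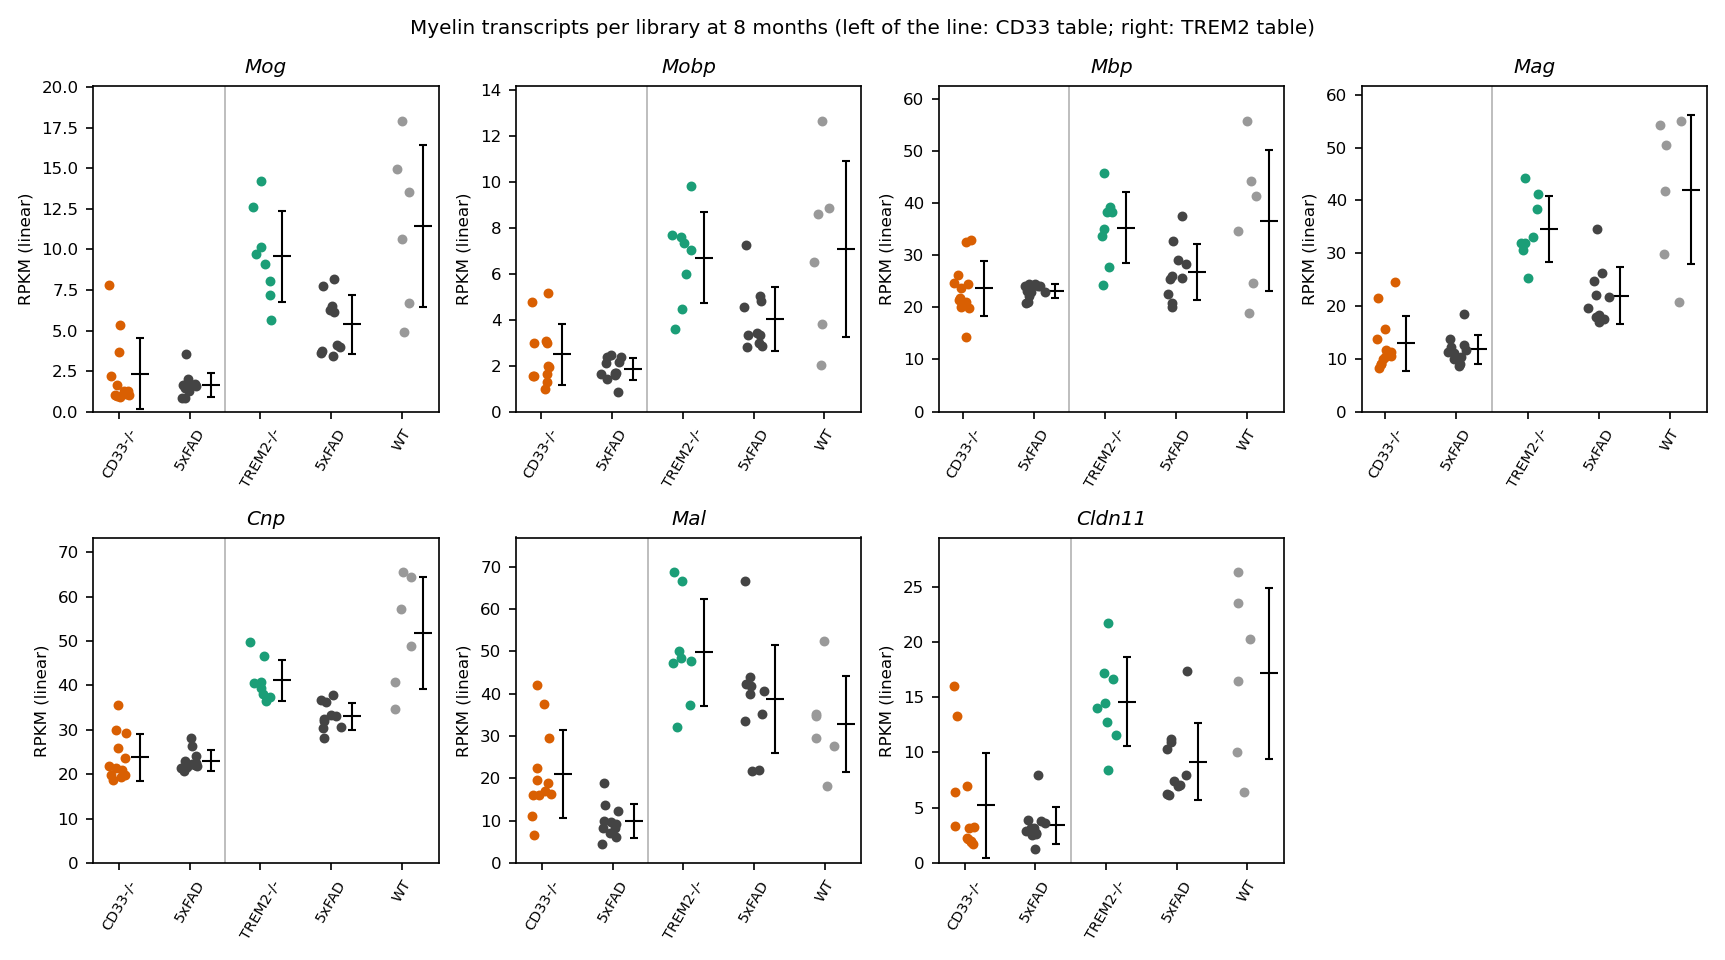
RPKM of each myelin gene in every library at 8 months (points), on linear axes from 0, with mean ± SD beside each group, where the line parts the 2 tables, which are not compared. Replicates 5 and 7 of 5xFAD;CD33-/- stand above the rest of their group, and for Mog the 5xFAD;TREM2-/- libraries (5.64 to 14.2 RPKM) and WT libraries (4.90 to 17.9 RPKM) reach above 5xFAD (3.45 to 8.16 RPKM).

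In the TREM2 table at 8 months, the sorted 5xFAD libraries held less of most of the myelin transcripts than the WT libraries. Mog, Mag, Cnp and Cldn11 were lower in 5xFAD, Mobp and Mbp were below WT without passing, and Mal was not. Mog ran from 3.45 to 8.16 RPKM with a median of 5.13 in 5xFAD and from 4.90 to 17.9 RPKM with a median of 12.1 in WT. All 10 5xFAD libraries were below the WT mean, while WT replicates 1 and 2, at 6.70 and 4.90 RPKM, lay inside the 5xFAD range (log2 change -0.96 ± 0.244, limma adjusted p = 0.00186). That pair of WT libraries was the lowest of its group for every one of the 7 genes, and replicate 2 is the WT library with 2 numbers in its title. Without the libraries with such titles, 6 of the 7, all but Mal, were called lower.

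Mag averaged 21.96 ± 5.46 RPKM in 5xFAD and 42.1 ± 14.1 RPKM in WT (SD, n = 10 and 6), a log2 change of -0.87 ± 0.183 (limma adjusted p = 0.000301, below the WT mean in 10 of 10). Cnp averaged 33.1 ± 3.07 RPKM in 5xFAD and 51.9 ± 12.6 RPKM in WT (-0.61 ± 0.108, limma adjusted p = 4.39e-05, 10 of 10). Cldn11 averaged 9.16 ± 3.46 RPKM in 5xFAD and 17.1 ± 7.74 RPKM in WT (-0.79 ± 0.257, limma adjusted p = 0.0111, 9 of 10). The 4 called lower of 7 stand beside 30.5% of all genes called lower in this comparison. None of these 4 calls was lost when a single library was left out, and Mag kept its call in all 26 alternatives run.

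Mobp, at 4.05 ± 1.4004 RPKM in 5xFAD and 7.08 ± 3.83 RPKM in WT (-0.60 ± 0.273, limma adjusted p = 0.0631), and Mbp, at 26.8 ± 5.38 RPKM in 5xFAD and 36.6 ± 13.5 RPKM in WT (-0.38 ± 0.182, limma adjusted p = 0.0776), had 9 of 10 5xFAD libraries below the WT mean. Mal averaged 38.8 ± 12.7 RPKM in 5xFAD and 32.9 ± 11.3 RPKM in WT (0.23 ± 0.217, limma adjusted p = 0.366), the 1 member above WT. Of 14 microglia markers 10 were lower in 5xFAD too (median -0.41), summing to between 22067 and 29875 RPKM in 5xFAD and between 28064 and 32370.5 RPKM in WT. Vessel and blood markers ran the other way, with 8 of 8 mural and 5 of 5 erythrocyte markers higher in 5xFAD (medians 1.53 and 0.74), where 28.3% of all genes were called higher. Of the endothelial markers 10 of 10 were higher in 5xFAD, summing to between 1054 and 2610 RPKM (median 2130) in 5xFAD and between 598.4 and 1221 RPKM (median 785.4) in WT. With a covariate of those markers 2 of the 4 calls remained (Mog -0.93, limma adjusted p = 0.0586, and Cldn11 -0.78, limma adjusted p = 0.138, were lost). Without the covariate the changes of Mog and Cldn11 were -0.96 and -0.79. The markers were themselves higher in 5xFAD, and their part in the myelin levels was not tested apart from genotype.

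Loss of TREM2 on the 5xFAD background at 8 months went with higher myelin transcripts. Mog, Mag and Cnp were higher in 5xFAD;TREM2-/- than in 5xFAD, and the other 4 genes had positive changes that did not pass. Mog ran from 5.64 to 14.2 RPKM with a median of 9.41 in 5xFAD;TREM2-/- and from 3.45 to 8.16 RPKM with a median of 5.13 in 5xFAD (log2 change 0.79 ± 0.224, limma adjusted p = 0.0162). The ranges overlapped, and all 8 knockout libraries were above the 5xFAD mean. Mag averaged 34.6 ± 6.201 RPKM in 5xFAD;TREM2-/- and 21.96 ± 5.46 RPKM in 5xFAD (0.66 ± 0.168, limma adjusted p = 0.00766, 8 of 8), and Cnp 41.1 ± 4.71 RPKM in 5xFAD;TREM2-/- and 33.1 ± 3.07 RPKM in 5xFAD (0.31 ± 0.099, limma adjusted p = 0.033, 8 of 8). The 3 of 7 called higher stand beside 7.04% of all genes.

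The 4 that missed the threshold were Cldn11 0.67 ± 0.236 (limma adjusted p = 0.0536), Mobp 0.66 ± 0.25 (limma adjusted p = 0.0707), Mbp 0.39 ± 0.167 (limma adjusted p = 0.116) and Mal 0.38 ± 0.2 (limma adjusted p = 0.2). With the title batch as a term, with only these 2 groups in the fit, or without the libraries that carry 2 numbers in the title, 6 of the 7, all but Mal, were called, and 5 were called without 5xFAD replicate 9 or without 5xFAD;TREM2-/- replicate 1. The call for Cnp was lost without 5xFAD replicate 2, 5 or 8 or knockout replicate 7 or 9, at changes between 0.27 and 0.30, and with no filter (0.31, limma adjusted p = 0.0642), and those for Mog and Mag were kept in all 28 alternatives. Of 14 microglia markers 2 were higher and 2 lower in 5xFAD;TREM2-/-. No endothelial marker was called here, though all 10 had positive changes (median 0.33), and the endothelial sum ran from 1296 to 2852 RPKM (median 2113) in 5xFAD;TREM2-/- and from 1054 to 2610 RPKM (median 2130) in 5xFAD.

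Set against WT, the 5xFAD;TREM2-/- group at 8 months was higher in Mal and lower in Cnp. Mal ran from 32.2 to 68.7 RPKM with a median of 48.2 in 5xFAD;TREM2-/- and from 18.3 to 52.4 RPKM with a median of 32.1 in WT (0.62 ± 0.227, limma adjusted p = 0.0318, 7 of 8 above the WT mean). Cnp ran from 36.4 to 49.7 RPKM in 5xFAD;TREM2-/- and from 34.8 to 65.4 RPKM in WT (-0.30 ± 0.113, limma adjusted p = 0.0335, 8 of 8 below the WT mean). The 1 of 7 called higher stands beside 19.9% of all genes called higher and the 1 of 7 called lower beside 22.4%, so neither share exceeds the background. The call for Mal was lost without knockout replicate 4 or 9 or WT replicate 1, 2 or 9, with the title batch as a term (0.50, limma adjusted p = 0.184) and without the libraries with 2 numbers in the title (0.49, limma adjusted p = 0.101). That for Cnp was lost without knockout replicate 1, 4, 5 or 6 or WT replicate 6, 7 or 8, and with only the compared groups in the fit (-0.30, limma adjusted p = 0.0766). With no filter both calls were lost (Mal limma adjusted p = 0.0585 and Cnp 0.0623). With a covariate of endothelial markers, of which 10 of 10 were higher in 5xFAD;TREM2-/- than in WT, Mal had a change of -0.24 (limma adjusted p = 0.704) and Cnp of -0.20 (limma adjusted p = 0.578). Mog was at 9.58 ± 2.79 RPKM in 5xFAD;TREM2-/- and 11.4 ± 5.00 RPKM in WT (-0.17 ± 0.255, limma adjusted p = 0.624). The 3 comparisons of this table share libraries, and both contrasts with 5xFAD use the same 10.

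**Figure D3:**
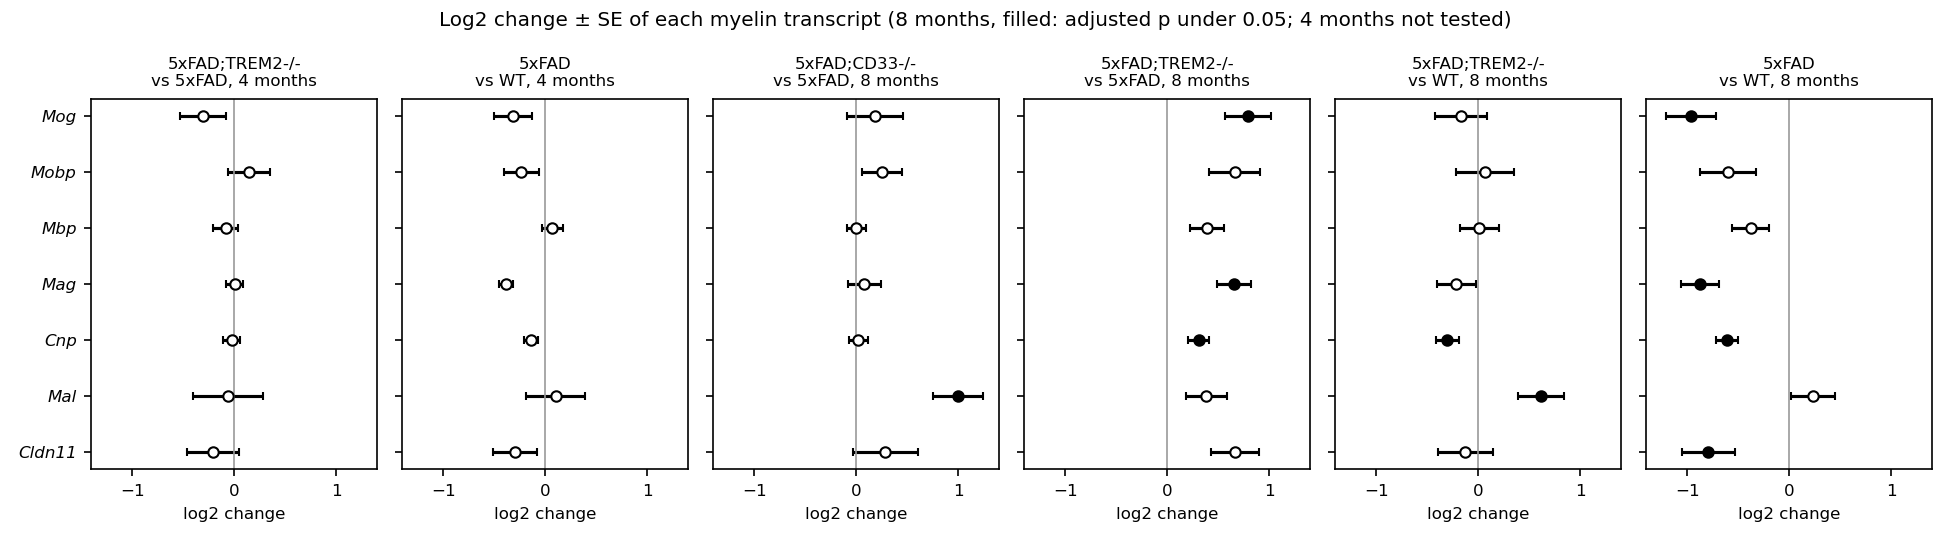
Log2 change of each myelin gene (point, with SE as the bar) on the log2(RPKM + 0.5) scale in 6 comparisons, the first-named group over the second, where filled points at 8 months had an adjusted p under 0.05 and the 4-month contrasts, which use 5xFAD libraries of the choice, have unfilled points. Mal stands apart from the rest in 5xFAD;CD33-/- against 5xFAD at 8 months (1.00) and in the 8-month contrasts with WT (0.62 and 0.23), where the other 6 lie at or below 0.06.

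The order of the groups differed between genes. By mean RPKM at 4 months Mog was highest in 5xFAD;CD33-/- (4.97 ± 2.06), then WT (3.86 ± 1.32), the double knockout (3.12 ± 0.944), 5xFAD (2.99 ± 0.968) and 5xFAD;TREM2-/- (2.27 ± 0.406), and each overlapped the next. Mal ended with WT instead, from 38.0 ± 24.7 RPKM in 5xFAD;CD33-/- to 10.7 ± 2.70 RPKM in WT. In the TREM2 table at 8 months Mog ran from WT (11.4 ± 5.00) through 5xFAD;TREM2-/- (9.58 ± 2.79) to 5xFAD (5.38 ± 1.80), while Mal ran from 5xFAD;TREM2-/- (49.8 ± 12.7) through 5xFAD (38.8 ± 12.7) to WT (32.9 ± 11.3), again with every neighbour overlapping. The 5xFAD group of the CD33 table, at the same labelled age, held 1.65 ± 0.726 RPKM of Mog and 11.8 ± 2.69 RPKM of Mag, and that of the table with TREM2-/- libraries held 5.38 ± 1.80 and 21.96 ± 5.46 RPKM. The tables were made separately and are not compared.

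Other genes of mature oligodendrocytes moved with the members in the TREM2 table. Of 28 tested, 15 were lower and 2, Pllp and Sirt2, higher in 5xFAD against WT (median -0.62, beside -0.02 for all genes), and 11 were higher and 1, Trf, lower in 5xFAD;TREM2-/- against 5xFAD (median 0.50, beside 0.02). Of all genes, 30.5% were called lower and 28.3% higher in the first comparison, and 7.04% higher in the second. Among the smallest adjusted p in 5xFAD against WT were those of Gal3st1 (-0.76, limma adjusted p = 0.000173), Tubb4a (-1.15, 0.000639) and Fa2h (-0.998, 0.000805). Gal3st1 and Fa2h make sulfatide and hydroxylated myelin lipids, and Tubb4a encodes a tubulin of oligodendrocytes and neurons. In 5xFAD;TREM2-/- against 5xFAD the smallest were those of the iron carrier gene Trf (-0.32, limma adjusted p = 0.00211), the membrane glycoprotein gene Opalin (0.80, 0.00595), the ephrin gene Efnb3 (0.73, 0.0175) and Tubb4a (0.83, 0.0178). Trf was lower in the knockout while the other 3 were higher.

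Transcription factors of the lineage did likewise. Of 6 tested, 5 were lower in 5xFAD against WT and 3 higher in 5xFAD;TREM2-/- against 5xFAD, beside 30.5% and 7.04% of all genes. Myrf averaged 3.96 ± 1.117 RPKM in 5xFAD;TREM2-/-, 2.17 ± 1.01 RPKM in 5xFAD and 4.49 ± 2.23 RPKM in WT. Sox10, which activates many myelin genes, averaged 4.05 ± 1.22 RPKM in 5xFAD;TREM2-/-, 2.36 ± 0.91 RPKM in 5xFAD and 4.99 ± 2.24 RPKM in WT. Olig1, a basic helix-loop-helix factor, averaged 6.90 ± 1.45 RPKM in 5xFAD;TREM2-/-, 4.05 ± 1.28 RPKM in 5xFAD and 7.41 ± 3.26 RPKM in WT. Against 5xFAD these 3 were the ones called higher in 5xFAD;TREM2-/- (Myrf 0.78, limma adjusted p = 0.027, Sox10 0.68, limma adjusted p = 0.0359, and Olig1 0.73, limma adjusted p = 0.018). Of 13 myelin lipid genes, 6 were higher and 3 lower in 5xFAD against WT, beside 28.3% of all genes higher and 30.5% lower. Among the smallest adjusted p were those of the sterol gene Hmgcs1 (0.46, limma adjusted p = 6.27e-07) and of Sgms1, a sphingomyelin synthase (1.1196, 0.000113), both higher, and of Gal3st1. Hmgcs1 is expressed by other cells too. The 9 precursor markers found in the tables summed to between 4.41 and 8.85 RPKM in 5xFAD;TREM2-/-, between 5.75 and 13.9 RPKM in 5xFAD and between 2.56 and 5.59 RPKM in WT, the other order from most of the mature genes. Of the 2 tested, Cspg4, a proteoglycan gene that pericytes express as well, was higher in 5xFAD than in WT (2.09, limma adjusted p = 2.90e-07) and lower in 5xFAD;TREM2-/- than in 5xFAD (-0.90, limma adjusted p = 0.00852), and Ptprz1 passed in neither. Neuronal markers summed to between 6.87 and 11.1 RPKM in 5xFAD;TREM2-/-, between 5.06 and 10.02 RPKM in 5xFAD and between 3.73 and 6.64 RPKM in WT. Of the 2 tested, Stmn2 was higher (1.08, limma adjusted p = 2.81e-05) and Camk2a lower (-0.38, limma adjusted p = 0.000926) in 5xFAD against WT.

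Across libraries the members varied together within groups. With each group's mean taken out, the correlation of log2 values between 2 members ran from 0.399 (Mag and Mal) to 0.884 (Mog and Cldn11) over 26 libraries at 4 months, from 0.453 to 0.956 over 23 in the CD33 table, and from 0.542 to 0.985 over 24 in the TREM2 table. These are descriptions over libraries, some of which may share a sort or a preparation. Among the genes closest to the members' mean, by the mean correlation over the 3 tables, were Aplp1 (0.969), an amyloid precursor-like protein gene, Car2 (0.953), a carbonic anhydrase of oligodendrocytes, Sez6l2 (0.929) and Olig1 (0.926). They were followed by Tspan2 (0.904), Ptgds (0.899), Tubb4a (0.889), Stmn4 (0.883), Cryab (0.868), Mapk8ip1 (0.858) and Cmtm5 (0.847). Among the 11213 genes tested in every table, 31, members included, had a mean correlation over 0.7. The 14 microglia markers lay between -0.472 and 0.00814 and 10 endothelial markers between 0.376 and 0.502 (median 0.454). The endothelial values average tables that differed. For the members other than Mal, correlations with the mean of the endothelial markers lay between 0.164 (Mag) and 0.594 (Cldn11) at 4 months. They lay between 0.382 (Mbp) and 0.734 (Cldn11) in the CD33 table, and between -0.147 (Mbp) and -0.00943 (Cldn11) in the TREM2 table. The 6 ependymal and choroid plexus markers lay between 0.0407 and 0.681, with a median of 0.675.

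The members differed in whether they scaled with Mog from near 0 or sat on a base. In the CD33 table, from the library with the lowest Mog (5xFAD replicate 7) to the one with the highest (5xFAD;CD33-/- replicate 7), Mog differed 9.56-fold, Cldn11 12.2-fold, Mal 9.13-fold and Mobp 6.06-fold. Mag differed 2.85-fold, Cnp 1.71-fold and Mbp 1.57-fold over the same pair. A straight line of RPKM on Mog RPKM in that table stood, at a Mog of 0, at 18.95 ± 0.53 RPKM for Cnp, 19.7 ± 0.779 RPKM for Mbp and 7.59 ± 0.388 RPKM for Mag, which is 80.7%, 84.1% and 61.3% of their mean levels. For Cldn11 it was at 0.0483 ± 0.284 RPKM, or 1.11% of the mean, and for Mobp at 47.6% of the mean, against -10.4% and 6.52% in the 4-month and the other 8-month table.

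Mal had no fixed place between these. Its line stood at 40.9% of its mean in the CD33 table, -44.9% at 4 months and 70.6% in the TREM2 table, where Mal differed 1.31-fold between the libraries with the lowest and the highest Mog. For Cnp, Mbp, Mag and Cldn11 the other tables gave a split in the same direction, narrower in the TREM2 table. At 4 months the line stood, at a Mog of 0, at 24.9 ± 1.28 RPKM for Cnp, 9.75 ± 1.31 RPKM for Mbp, 15.5 ± 1.26 RPKM for Mag and 0.1 ± 0.435 RPKM for Cldn11. These levels were 79.3%, 53.4%, 71.2% and 1.96% of the means. In the TREM2 table it stood at 21.1 ± 1.98 RPKM for Cnp, 13.99 ± 1.55 RPKM for Mbp, 7.66 ± 1.59 RPKM for Mag and 1.11 ± 0.67 RPKM for Cldn11, or 52.2%, 43.6%, 24.5% and 8.58% of the means. By arithmetic, an equal addition of RPKM is a smaller fold in a gene with a high base, but the additions here were not equal. In the CD33 table the slope of the line ran from 0.569 (Mobp) to 4.63 (Mal) RPKM per RPKM of Mog. What sets the base was not tested. The error given with these lines is the standard error of the fitted level, which treats libraries as independent and pools the groups of a table.

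**Figure D4:**
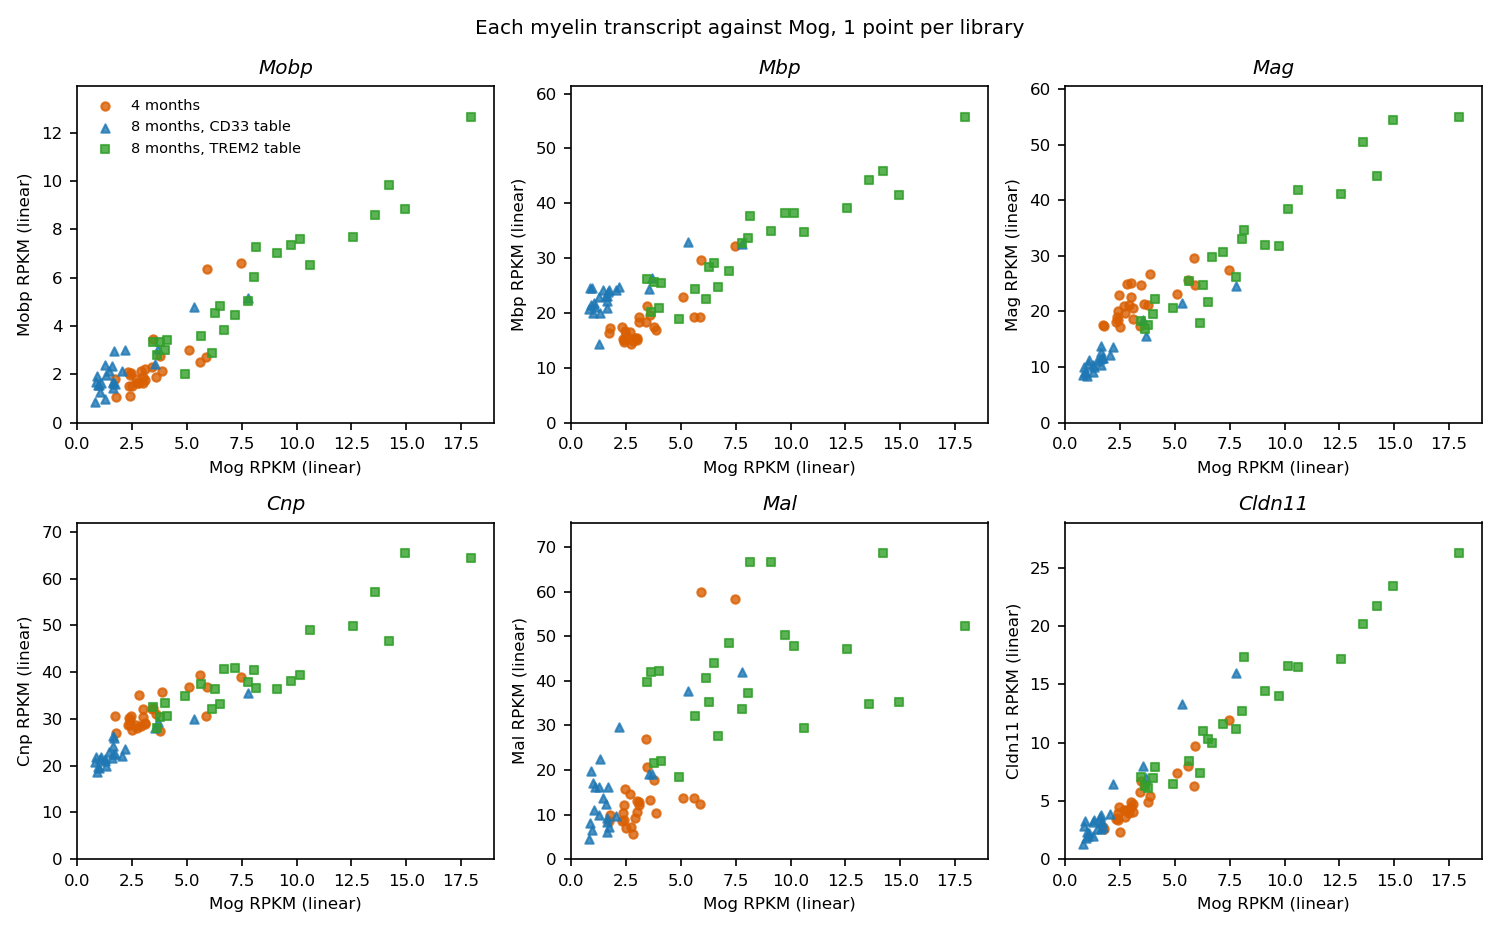
RPKM of 6 myelin genes against Mog RPKM, 1 point per library, on linear axes from 0, with the 3 tables in different colours and shapes. Cldn11 runs towards 0 with Mog in all 3 tables and Mobp in 2 of them, while Cnp, Mbp and Mag stop above it (lowest 18.6, 14.4 and 8.34 RPKM), and Mal is scattered.

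Mal followed endothelial markers more closely than Mog did. Its correlation with the mean of the other 6 members averaged 0.742 over the 3 tables, against 0.809 to 0.964 for the rest. At 4 months Mag (0.649) and Cnp (0.711) were below Mal (0.764), and in the CD33 table Mbp (0.734) was below Mal (0.778). With the mean of the 10 endothelial markers, group means taken out, it had a correlation of 0.91 at 4 months, 0.942 in the CD33 table and 0.6 in the TREM2 table. For Mog these were 0.47, 0.59 and -0.0186. With the mean of the astrocyte markers, in the same order, Mal had 0.654, 0.664 and 0.129 and Mog 0.522, 0.515 and -0.286. With the mean of the microglia markers, Mal had -0.786, -0.822 and -0.567 and Mog -0.495, -0.527 and -0.0428. The ratio of Mal to Mog had a median of 11.9 in 5xFAD;CD33-/- and 5.63 in 5xFAD in the CD33 table, and of 4.99 in 5xFAD;TREM2-/-, 6.67 in 5xFAD and 2.85 in WT in the TREM2 table. There the lowest 5xFAD ratio, 4.33, was above the highest WT ratio, 4.11, so the groups did not overlap, a comparison chosen after the values were seen. The ratio of Cldn11 to Mog had medians of 1.56 in 5xFAD;TREM2-/-, 1.74 in 5xFAD and 1.49 in WT. The part of endothelial RNA in the Mal levels was not tested.

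**Figure D5:**
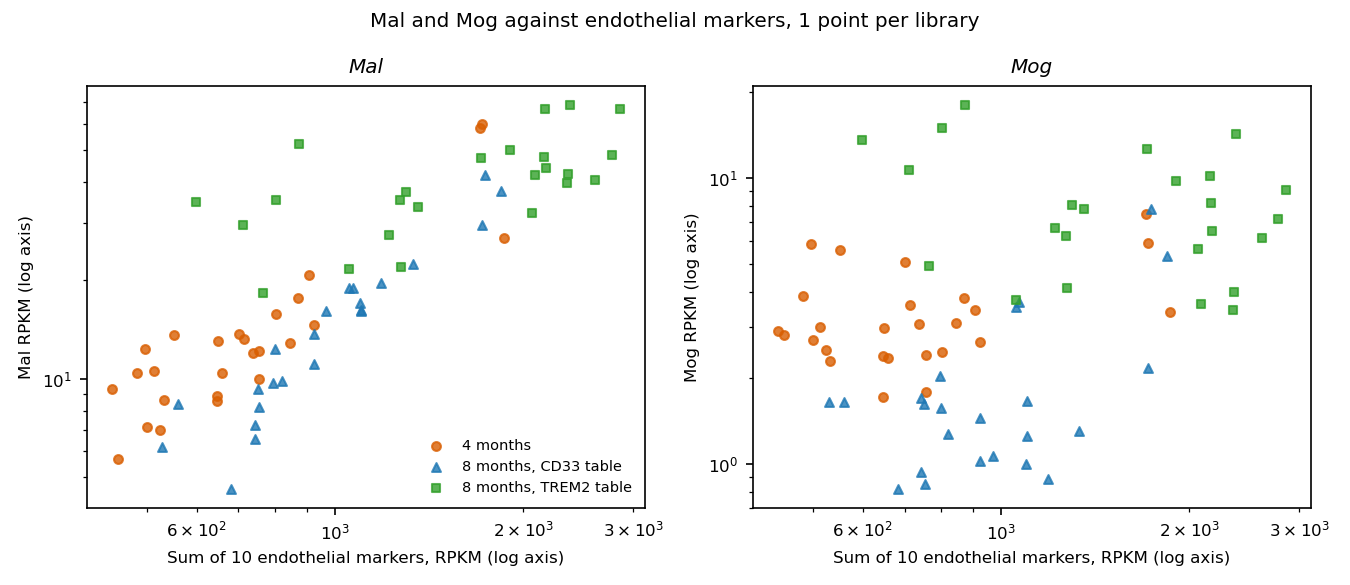
RPKM of Mal (left) and Mog (right) against the summed RPKM of 10 endothelial markers, 1 point per library, on log axes, with the 3 tables in different colours and shapes. Mal climbs with the endothelial sum at 4 months and in the CD33 table, and Mog does so less.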

How the data were processed

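Cells were sorted on CD11b and CD45 and TruSeq stranded mRNA libraries sequenced as single-end reads, per the labels and design text. The submitters' processing notes name STAR, HTSeq and edgeR with the mm10 build (GRCm38), and their design text gives STAR for alignment and HTSeq for counting. It gives no versions, annotation or strand setting. The authors deposited RPKM values in 3 separately made tables. Dividing the deposited values by the worth of 1 read at each gene's length gave whole reads (100% within 0.05 reads), from which totals were taken. The values also carry a library factor of 0.8435 to 1.096. Of the 39179 IDs, 37607 were in GENCODE M21.

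Groups follow the labelled genotype and age, with no library left out. Tests used limma 3.58.1 (R 4.3.3), two-sided, trended and robust, on log2(RPKM + 0.5), which understates changes of low genes, with 1 fit per table and Benjamini-Hochberg adjustment over the genes that reached 1 RPKM in a number of libraries equal to the size of the smallest group. An adjusted p under 0.05 was a call. Reads were not tested with a count model in the main analysis, and voom on them was an alternative (2267 calls for 5xFAD against WT at 4 months and 2182 for TREM2 knockout against 5xFAD at 8 months). The fit was tested on simulated data. ± is an SD after a mean and an SE after a log2 change. The sources do not tie libraries to single animals, so p-values measure spread between these libraries, and 1 title number of 5xFAD;TREM2-/- at 8 months recurs in another title.

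The members and the 15 marker lists (157 genes) were chosen with earlier results of these data known, so counts over them are descriptions. All members were named; like genes are the 12 with an ordinary symbol and the highest mean within-group correlation, and listed genes are those with the smallest p or highest level. Some genes that these rules name are not reported here. The number of reads limits precision by counting error only, from 41 reads for the lowest Mog value. Within groups 279 pairs of libraries were compared, and all differed beyond sampling noise (chi-square over degrees of freedom 5.26 or more). Alternatives were the pseudocount, the filter, scaling, voom, a batch term from the library titles, a replicate block, only the compared groups, and leaving out each library.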

Additional observations from a re-analysis of the deposited data

Results flagged for a closer look

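In groups of 4 to 10 libraries, 5 of 49 combinations of gene and group held a library far from the others, where chance alone flags about 1 in 20. Replicate 9 of 5xFAD at 8 months in the TREM2 table accounted for 4 of them, being highest in its group of 10: Mobp was 7.28 RPKM with the others from 2.81 to 5.03, Mag 34.7 RPKM with the others from 16.9 to 26.2, Mal 66.8 RPKM with the others from 21.7 to 44.0, and Cldn11 17.4 RPKM with the others from 6.14 to 11.2. Without it 5 members were called in 5xFAD;TREM2-/- against 5xFAD. The other was Mal in 5xFAD replicate 1 at 4 months, at 27.0 RPKM with the other 8 from 6.97 to 13.8, and its endothelial sum, 1861 RPKM, was the highest of the 4-month libraries.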

How the results depend on the processing

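The 11 calls of single genes include Mag in 5xFAD against WT at 4 months (kept in 25 of 26 alternatives). That call rests on libraries of the choice and is a description. Over all 11 calls, 255 of 294 recomputed values kept the call, 37 lost it with the same direction and 2, both Mal with the endothelial covariate chosen after seeing the data (-0.071 for 5xFAD;CD33-/- and -0.24 for 5xFAD;TREM2-/- against WT at 8 months), changed sign. That covariate gave 3 members called for 5xFAD against WT at 4 months, 0 for 5xFAD;CD33-/- at 8 months (median of members -0.33), 2 for 5xFAD against WT at 8 months and 0 for 5xFAD;TREM2-/- against WT. No filter gave 0 for 5xFAD;CD33-/- and for 5xFAD;TREM2-/- against WT at 8 months, and a pseudocount of 0.1 gave 1 for 5xFAD;TREM2-/- against WT at 4 months. For 5xFAD;TREM2-/- at 8 months, the title batch, only the compared groups and, chosen after seeing the data, leaving out the titles with 2 numbers each gave 6 against 5xFAD and 1 against WT. Leaving out single libraries gave 0 to 1 called for 5xFAD;CD33-/- at 8 months and for 5xFAD;TREM2-/- against WT at 4 months, 0 to 2 for 5xFAD;CD33-/-;TREM2-/- against 5xFAD;CD33-/- and for 5xFAD;TREM2-/- against WT at 8 months, and 2 to 5 for 5xFAD;TREM2-/- against 5xFAD at 8 months. The cause was not tested. Counts at 4 months against 5xFAD or 5xFAD;CD33-/-, and that of 5xFAD against WT, rest on libraries of the choice and are descriptions.

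Title numbers did not pair the libraries (5 of 22 same-number pairs at 4 months, 4 of 11 and 10 of 19 at 8 months had a correlation over 0.1). With a replicate block, 0 members were called for 5xFAD against WT at 4 months (Mag -0.32), 0 for 5xFAD;CD33-/- at 8 months and 1 for 5xFAD;TREM2-/- against WT at 8 months. Over all genes, counts of calls moved by more than 1.5 times in every comparison but 5xFAD;TREM2-/- against 5xFAD at 8 months. At 4 months, 2181 were called for 5xFAD against WT (1306 to 2634 over the alternatives). For 5xFAD;TREM2-/-, 311 (148 to 465) were called against 5xFAD and 52 (26 to 82) against WT. For the double knockout, 488 (75 to 587) were called against 5xFAD, 639 (169 to 1224) against 5xFAD;CD33-/- and 9 (5 to 22) against 5xFAD;TREM2-/-. At 8 months, 374 (14 to 561) were called for 5xFAD;CD33-/-, 7428 (3927 to 8101) for 5xFAD against WT and 5342 (936 to 5489) for 5xFAD;TREM2-/- against WT, with the lowest of each under the endothelial covariate.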
